A study of Mus musculus with 24 samples.

Results

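The major histocompatibility complex (MHC) of the mouse, called H2, lies on chromosome 17. All genes of this region that start between 33.9 and 36.1 Mb on GRCm38 were taken, and 121 of the 221 annotated genes reached at least 1 CPM (a count scaled to the size of its library) in at least 1 of 24 kidneys, out of 16092 genes that did so in the whole genome. Of these 121 members, 107 are annotated as protein coding. The members were therefore chosen by position and level, and the genes Rps18, H2-Eb1, C4b and those of the H2-Q series drew attention to the region through their on-off levels, so the levels of these genes across mice and groups are given as a description with no p value. At the edges of the rule, the member CR974462.6 reached 1.03 CPM in its highest kidney and H2-Bl, just left out, 0.882 CPM. Whole kidneys came from 6 mice in each of 4 groups. The cKOm (male) and cKOf (female) mice carried Pex5lox/lox, Pax8-rtTA and LC1, a doxycycline (DOX)-inducible system in which the Pax8 promoter directs Cre to the renal tubule, so other kidney cells were not targeted. The Ctrlm and Ctrlf mice were littermates with Pex5lox/lox alone. All 4 groups received DOX for 2 weeks from an age of 8 weeks, and tissue was taken 4 weeks later at ZT9. The labels give C57BL/6J as the background of every line. Each library held 19376152 to 28470831 gene counts, and 3 counts, the limit that a count of 0 allows, were 0.0959 to 0.157 CPM. Pex5, which encodes the peroxisomal import receptor, was at 49.1 to 62.8 CPM in Ctrlm, 41.8 to 47.3 in cKOm, 43.0 to 61.7 in Ctrlf and 38.0 to 48.5 in cKOf mice. Transcripts of the proximal tubule summed to between 5382 and 8138 CPM per kidney, and those of B cells to between 1.08 and 3.35 CPM.

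MHC class I molecules pair with beta-2 microglobulin and show peptides from inside the cell to cytotoxic T cells, and class II molecules show peptides from the endosome to helper T cells and are made mainly by dendritic cells, macrophages and B cells. The proteasome subunits Psmb8 and Psmb9, the transporter Tap1/Tap2 and the chaperone Tapbp prepare and load class I peptides. The genes between the class I and class II blocks include complement factors, Tnf and many genes without an immune role. H2 alleles are inherited together as haplotypes, which differ between mouse strains, and no genotype of the 24 mice at H2 was analysed here.

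Rps18, which encodes a protein of the small ribosomal subunit (ENSMUSG00000008668, chr17:33951999-33956001, minus strand), had a wide gap in level, with no mouse between 5.44 and 36.3 CPM. It is shown first together with Gm10260 (chr13:97760072-97760632), an unspliced copy on chromosome 13, because a read can be assigned to either gene only where their sequences differ. Over the 456 coding bases before the stop codon, the annotated GRCm38 transcripts differ at 4 bases (99.1% identity), and the longest coding stretch with no difference has 185 bases. Bases 169 to 446 of both coding sequences hold all 4 differences, in capitals, which are T186C, A337C, G371A and G431A, with the Rps18 base first and positions counted from the A of the start codon.
Rps18: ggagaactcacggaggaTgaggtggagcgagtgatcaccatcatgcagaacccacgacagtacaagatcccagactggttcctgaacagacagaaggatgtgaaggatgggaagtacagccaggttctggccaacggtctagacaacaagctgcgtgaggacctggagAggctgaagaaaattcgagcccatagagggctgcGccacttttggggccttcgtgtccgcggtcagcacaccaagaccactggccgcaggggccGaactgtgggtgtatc
Gm10260: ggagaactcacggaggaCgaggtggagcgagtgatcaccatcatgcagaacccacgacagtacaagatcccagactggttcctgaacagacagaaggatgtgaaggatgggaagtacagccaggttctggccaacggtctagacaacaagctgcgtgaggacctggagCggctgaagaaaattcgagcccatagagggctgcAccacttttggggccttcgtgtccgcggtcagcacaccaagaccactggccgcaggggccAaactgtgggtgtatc
Reads that aligned to several places were not counted on any gene and made up between 26.9% and 34.8% of all reads in the files.

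In 8 mice (Ctrlm 2, 3 and 4, cKOm 1 and 2, Ctrlf 5, cKOf 1 and 2), Rps18 was at 3.4 to 5.44 CPM. In 11 mice (cKOm 3, 4 and 5, Ctrlf 1, 2, 3, 4 and 6, cKOf 4, 5 and 6) it was at 36.3 to 69.6 CPM, and in the last 5 mice (Ctrlm 1, 5 and 6, cKOm 6, cKOf 3) at 80.2 to 116 CPM. Gm10260 was the mirror image of this order. Its level was 41.3 to 76.0 CPM in the first 8 mice, 21.1 to 39.1 CPM in the next 11 and 0 to 0.297 CPM in the last 5. Of the reads counted on either gene, Rps18 held 5.88% to 10.8% in the first set, 61.4% to 69.5% in the second and 99.7% to 100% in the third. These shares do not depend on library scaling, and the widest 95% Wilson interval for a single kidney, which covers counting error only, was 5.57 percentage points wide. The sum of both genes was spread less, from 46.4 CPM in Ctrlm 4 to 116 CPM in Ctrlm 5. It was not constant over the sets, at 46.4 to 80.9 CPM in the first 8 mice, 58.5 to 109 CPM in the next 11 and 80.2 to 116 CPM in the last 5. The sets were drawn after the values were seen and carry no test. Gm26619, a noncoding RNA annotated on the opposite strand of the Gm10260 locus, was at 0 in the last 5 mice and at 0.889 to 2.26 CPM in the first 8.

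**Figure D1:**
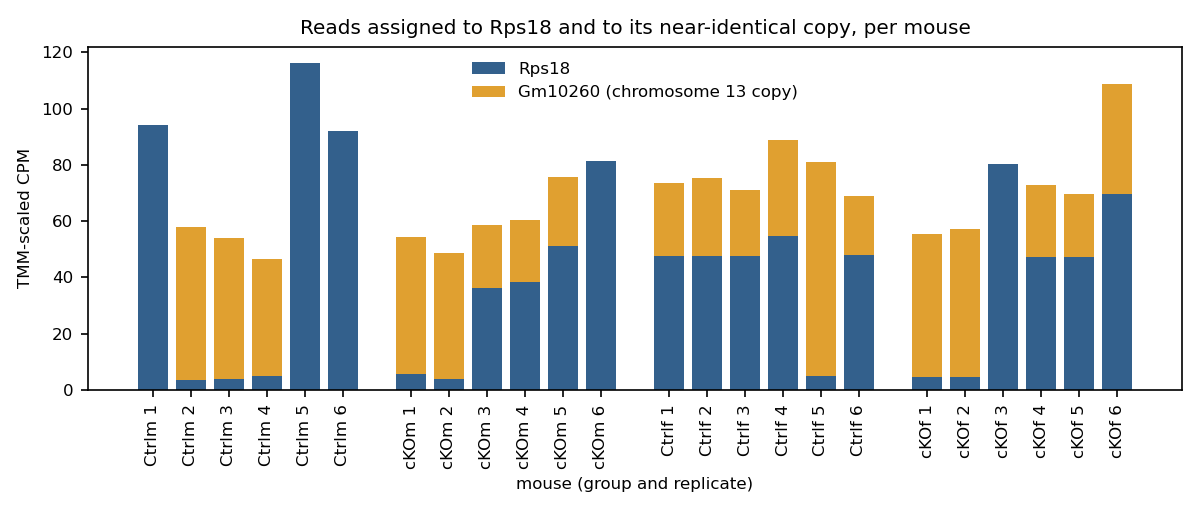
Stacked bars give the TMM-scaled CPM of Rps18 (blue) and of its copy Gm10260 (yellow) in each of 24 mice, ordered by group and replicate. The 5 mice with almost no yellow hold 80.2 to 116 CPM of Rps18, and the 8 mostly yellow mice hold 3.4 to 5.44 CPM of it.

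The class II gene H2-Eb1 (ENSMUSG00000060586, chr17:34305867-34316674), the beta chain of the E molecule, followed Rps18 most closely among the members, with a Pearson r of 0.95 and a Spearman rho of 0.83 over 24 mice on the log2 CPM scale. It was at 0.335 to 2.62 CPM in the 8 mice with the lowest Rps18 share, at 15.6 to 118 CPM in the 11 and at 27.7 to 74.5 CPM in the 5. No mouse lay between 2.62 and 15.6 CPM. H2-Q5, H2-Q6 and H2-Q7, class I genes of the Q region, followed it at a smaller range. H2-Q5 had r = 0.88 with Rps18 and was at 0.0494 to 1.05 CPM in the 8 mice, 1.63 to 7.34 CPM in the 11 and 1.93 to 4.19 CPM in the 5. H2-Q6 (r = 0.82) was at 7.13 to 16.8 CPM in the 8 mice, 16.9 to 99.5 CPM in the 11 and 29.0 to 42.3 CPM in the 5. H2-Q7 (r = 0.81) was at 2.63 to 7.65, 7.27 to 46.6 and 12.4 to 18.5 CPM in these mice, so the 11 overlapped both other sets. The transcripts of H2-Q5 and H2-Q7 are 95.1% identical over 1006 bases and those of H2-Q6 and H2-Q7 94.7% identical over 1031 bases, so the split of reads among the H2-Q genes is uncertain.

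Other class I and class II genes ran the opposite way. H2-Q1 (chr17:35320405-35325099) was at 2.85 to 4.38 CPM in the 8 mice and 0.982 to 2.83 CPM in the 11. In the last 5 it had 0 to 2 counts, or at most 0.0991 CPM, which is under the limit of 3 counts per library (r = -0.71, rho = -0.85). H2-Ea-ps (chr17:34341959-34344645), annotated as a polymorphic pseudogene of the E alpha chain, had no count in these 5 mice and was at 0.301 to 4.81 CPM in the other 19. H2-D1, a classical class I gene that nearly all cells express, was at 271 to 517 CPM in the 8 mice and at 141 to 213 CPM in the 5. Between these sets its order was opposite to that of H2-K1, the other classical class I gene, at 103 to 178 and 188 to 244 CPM. In the 11 mice, H2-D1 was at 194 to 940 CPM and H2-K1 at 133 to 802 CPM. For both genes the 11 thus overlapped the 8 and the 5. The paired beta chain genes of the DM molecule, which loads class II peptides, also ran opposite ways. H2-DMb2 was at 3.49 to 9.63 CPM in the 8 mice and 0.391 to 1.24 CPM in the 5, and H2-DMb1 at 3.51 to 8.99 and 10.4 to 16.1 CPM. The 11 mice overlapped both of these sets, at 0.937 to 41.1 CPM for H2-DMb2 and 5.85 to 44.0 CPM for H2-DMb1. Their transcripts are 95.4% identical over 848 bases.

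**Figure D2:**
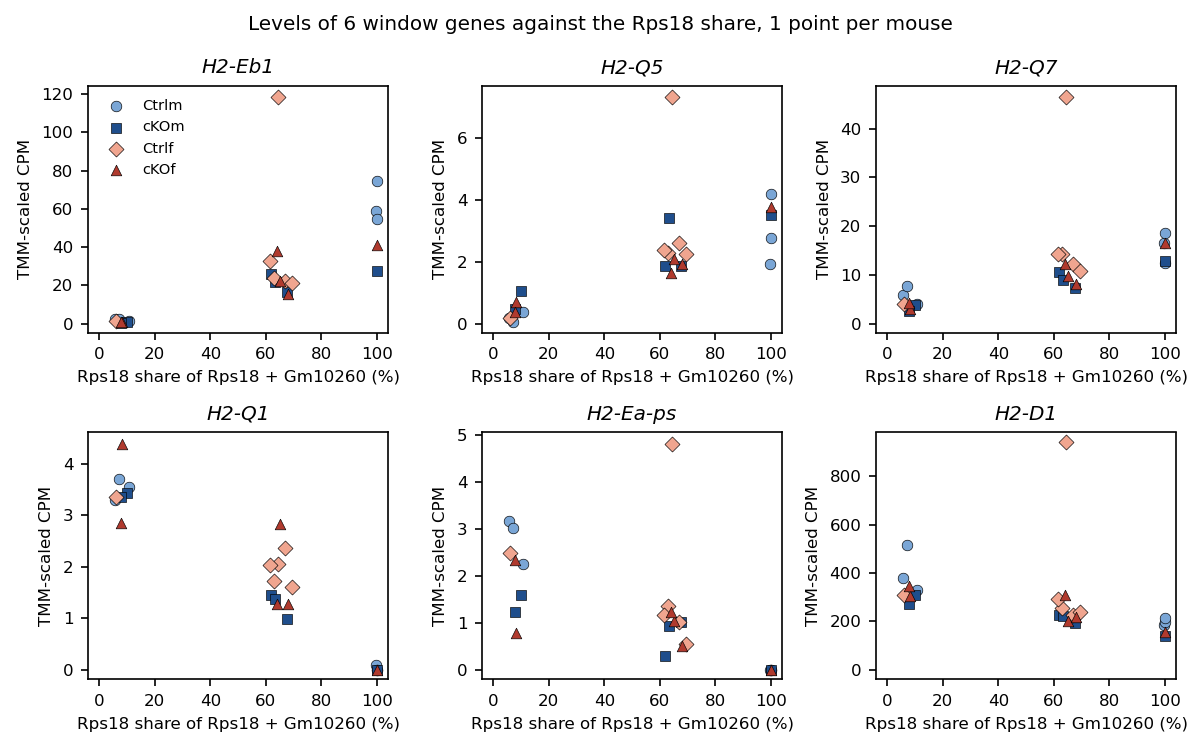
Each panel plots the TMM-scaled CPM of a window gene (vertical) against the percentage of Rps18 and Gm10260 reads that were counted on Rps18 (horizontal), with 1 point per mouse and a marker per group. H2-Eb1 and H2-Q5 are lowest at shares under 11%. H2-Q7 is low there too, at up to 7.65 CPM, but overlaps the mice with middle shares, which start at 7.27 CPM. H2-Q1 and H2-Ea-ps are at or near 0 at shares over 99%, and the isolated high point of every panel but H2-Q1 is Ctrlf 1.

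A gap in level was counted where neighbouring mice, sorted by level, were at least 1 apart on the log2 CPM scale with at least 3 mice on either side. Rps18, H2-Eb1 and the H2-Q genes were known to have on-off levels when the region was chosen, so the count restates that choice. By this measure 4 of 121 members (Rps18 at 2.72, H2-Eb1 at 2.54, H2-Q1 at 2.5 and H2-Ea-ps at 2.12) had a gap, against 284 of 16092 genes tested, or 1.76%. C4b, at 0.74, and H2-Q10, at 0.82, did not, and C4b showed no relation to the Rps18 order, with 0.526 to 16.4 CPM in the 8 mice and 1.53 to 10.8 CPM in the 5. Of the other 120 members, 8 had an absolute r of at least 0.7 with Rps18 (H2-Eb1, H2-Q5, H2-Q6, H2-Q7, CR974462.6, Vars, Ring1 and H2-Q1), against 0.0808% of all genes tested. All of these but CR974462.6, Vars and Ring1 were among the genes that drew attention to the region. This count therefore also restates that choice. The median r with Rps18 was 0.054 over the members and -0.0088 over all genes, so most members did not follow it. By the same measure 8 members were like H2-Eb1 (0.0621% of all genes), 9 like H2-Q7 (0.0932%) and 5 like C4b (0.578%), the last being H2-T22, H2-Aa, Gm11127, H2-DMa and Tap1. Those like H2-Eb1 and H2-Q7 also include Rps18 and other genes that drew attention to the region, so their counts are a description only. Without Ctrlf 1, 13 members were like Rps18 (0.118% of all genes) and 1 like C4b (1.45%). Vars, a transfer RNA synthetase gene, and Ring1, a Polycomb gene, had r = 0.71 each but narrow ranges, at 16.4 to 24.6 CPM and 12.6 to 24.3 CPM. These correlations share their libraries, and those among H2-Q genes may share reads, so they carry no p value.

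The likeness did not end at the window's lower edge. Outside it, Rab11b (chr17:33742484-33760530), a vesicle transport GTPase, had r = 0.88 with Rps18, the pseudogene Gm4134 (chr17:33861302-33864228) r = -0.76 and Cyp4f41-ps (chr17:32950961-32965718) r = 0.71. Kifc1, the last tested gene before the window, had r = -0.25, and the genes next to the upper edge had r = -0.0064 (Gm11127, inside) and -0.040 (H2-T-ps, outside). The remaining genes among the 5 most like Rps18 outside the window were Gm26619 on chromosome 13 (r = -0.76) and Dync1i2 on chromosome 2 (r = 0.70). For H2-Eb1 and H2-Q7, Srgn, a proteoglycan gene of blood cells on chromosome 10, was among them (r = 0.72 and 0.78), and for H2-Q7 also Ctss, which encodes the class II processing protease cathepsin S (r = 0.71), Bak1 (r = 0.72), Apol11b (r = 0.72) and Emc1 (r = -0.71). C4b was different, since its most similar genes outside the window were Phf11a, Sectm1b, Mpeg1, Pik3ap1 and Tgfbi (r = 0.80 to 0.83), of which Mpeg1 is a macrophage gene.

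**Figure D3:**
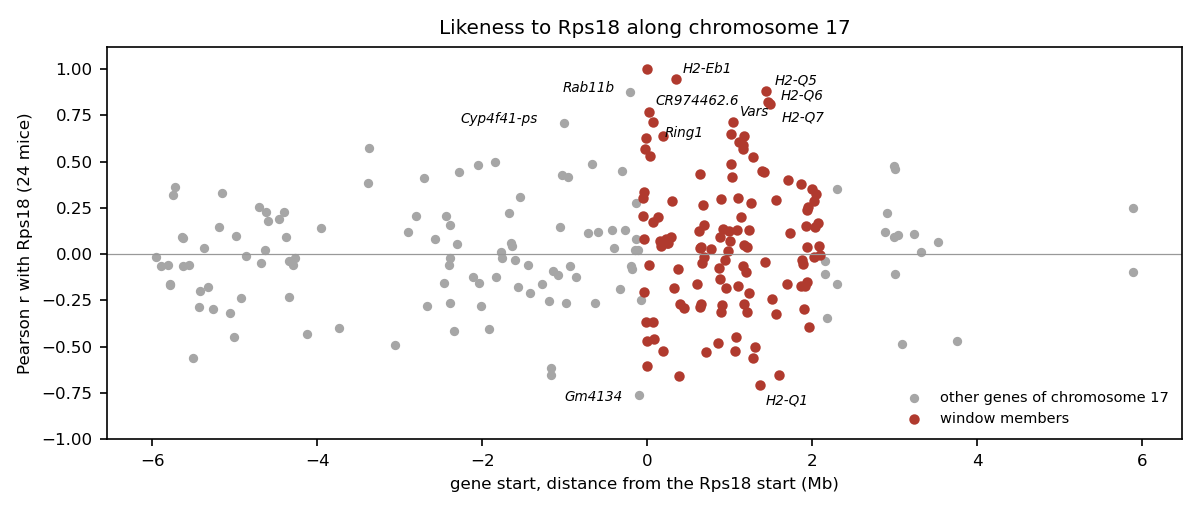
Each point is a tested gene of chromosome 17 within 6 Mb of Rps18, placed by the distance of its start from that of Rps18 in Mb (horizontal) and its Pearson r with Rps18 over 24 mice (vertical), with window members in red. Named genes have an absolute r of at least 0.7, and Rab11b and Gm4134 lie just before the window.

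The 3 sets of mice were not spread evenly over the groups. Ctrlm had 3 mice in the set with the low Rps18 share, 0 in the middle set and 3 in the high set. The numbers were 2, 3 and 1 in cKOm, 1, 5 and 0 in Ctrlf, and 2, 3 and 1 in cKOf. H2-Eb1 had its lowest, median and highest value at 1.28, 28.7 and 74.5 CPM in Ctrlm, 0.335, 18.9 and 27.7 in cKOm, 1.34, 23.2 and 118 in Ctrlf and 0.682, 18.9 and 41.0 in cKOf mice. The highest Ctrlf value is that of Ctrlf 1. The part of the sets in these group values was not tested. The Ctrlm mice 1, 5 and 6 (59.0, 54.8 and 74.5 CPM) lay above every cKOm mouse and the other 3 at 1.28 to 2.62 CPM lay within the cKOm range, and the log2 difference of cKOm from Ctrlm mice was -1.07 with a standard error of 0.96. For Rps18 it was -0.53 with a standard error of 0.81 in males and 0.02 with a standard error of 0.80 in females. The rule named 10 of the members, and of the other 111 members 6 were past an edgeR adjusted p of 0.05 in the comparison of cKOm with Ctrlm mice and 5 with the Rps18 level as a covariate (9.05% and 8.61% of all genes). In the comparison of Ctrlm with Ctrlf mice these numbers were 5 and 9 (15.7% and 15.8% of all genes).

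A single control female, Ctrlf 1, held the highest value of 34 of 121 members (28.1%), against 6.38% of all tested genes. These included 25 of the 28 class I, class II and peptide loading members in the lists used. Among the 34, CR974462.6 and H2-Eb2 reached 1 CPM in no other kidney. H2-Eb1, C4b, H2-Q2, H2-Q4, H2-Q5, H2-Q6 and H2-Q7 were named by the rule. Both counts are therefore a description only. H2-K1 was at 802 CPM in this kidney, against 103 to 244 CPM in the other 23. H2-Ab1, the beta chain of the class II A molecule, was at 686 CPM against 41.5 to 155, Psmb8 at 103 against 7.43 to 19.6, Tap1 at 79.5 against 6.67 to 17.3 and C4b at 29.6 against 0.526 to 16.4. Btnl2, a butyrophilin-like gene, was at 47.6 CPM against at most 2.67 CPM. Of the 9 partner genes outside the region, 7 were highest in the same kidney, and Calr (739 CPM against 403 to 1034) and Pdia3 (436 against 319 to 592) lay inside the range of the other mice. B2m was at 3054 CPM against 330 to 770, Cd74, the class II invariant chain, at 983 against 70.1 to 214, Ciita, the class II transactivator, at 54.3 against 3.28 to 12.6, and Nlrc5, the class I transactivator, at 84.1 against 5.01 to 16.2. Rfx5, a class II promoter factor, was at 29.2 against 15.9 to 25.4. Interferon-response transcripts summed to 789 CPM in Ctrlf 1, against 122 to 215 CPM in the other mice. Macrophage and dendritic cell transcripts summed to 202 CPM against 71.9 to 148, and T cell transcripts to 10.6 against 1.94 to 7.16. B cell transcripts, at 3.24 CPM, lay inside the range of the other mice (1.08 to 3.35 CPM). In whole kidney, more cells of a type and more RNA per cell cannot be told apart.

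The class I and class II promoters share a motif, and 3 of them are shown because their genes were all highest in Ctrlf 1 while H2-Aa did not share the on-off order of H2-Eb1 and H2-Q7. The motif searched was ATTGG, the Y-box core, on either strand (CCAAT on the other), in the 250 bases before the annotated start. It was in 8 of 9 promoters of class II members (8 genes), in 9 of 10 promoters of class I members (9 genes), in 36.6% of the 131 promoters of all members found in RefSeq and in 33.8% of 32851 promoters genome-wide. A match is a description of the sequence, not of binding. The 250 bases of GRCm38.p6 (RefSeq), on the strand of the gene, were read at chr17:34305617-34305866 for H2-Eb1 (plus strand), chr17:34287824-34288073 for H2-Aa (minus strand) and chr17:35438905-35439154 for H2-Q7 (plus strand), with the motif in capitals.
H2-Eb1: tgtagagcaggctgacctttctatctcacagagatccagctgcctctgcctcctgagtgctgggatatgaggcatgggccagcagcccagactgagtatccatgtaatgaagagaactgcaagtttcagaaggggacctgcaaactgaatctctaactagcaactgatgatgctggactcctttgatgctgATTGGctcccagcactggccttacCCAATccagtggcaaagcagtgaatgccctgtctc
H2-Aa: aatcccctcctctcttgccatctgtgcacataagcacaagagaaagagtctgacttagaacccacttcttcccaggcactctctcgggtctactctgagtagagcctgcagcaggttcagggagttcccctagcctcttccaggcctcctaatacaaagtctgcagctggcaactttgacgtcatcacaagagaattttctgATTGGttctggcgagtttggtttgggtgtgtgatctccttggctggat
H2-Q7: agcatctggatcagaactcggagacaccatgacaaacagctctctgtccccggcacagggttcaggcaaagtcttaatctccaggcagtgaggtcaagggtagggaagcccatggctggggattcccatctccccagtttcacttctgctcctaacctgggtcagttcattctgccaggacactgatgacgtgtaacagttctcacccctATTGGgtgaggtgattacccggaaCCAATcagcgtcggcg
H2-Eb1 has the motif at 59 and 35 bases before the start, H2-Aa at 48 and H2-Q7 at 40 and 16. H2-Aa, the alpha chain of the A molecule, is the direct neighbour of H2-Eb1 and was at 39.3 to 89.4 CPM in the 8 mice with the lowest Rps18 share and at 27.4 to 69.0 CPM in the 5 with the highest.

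**Figure D4:**
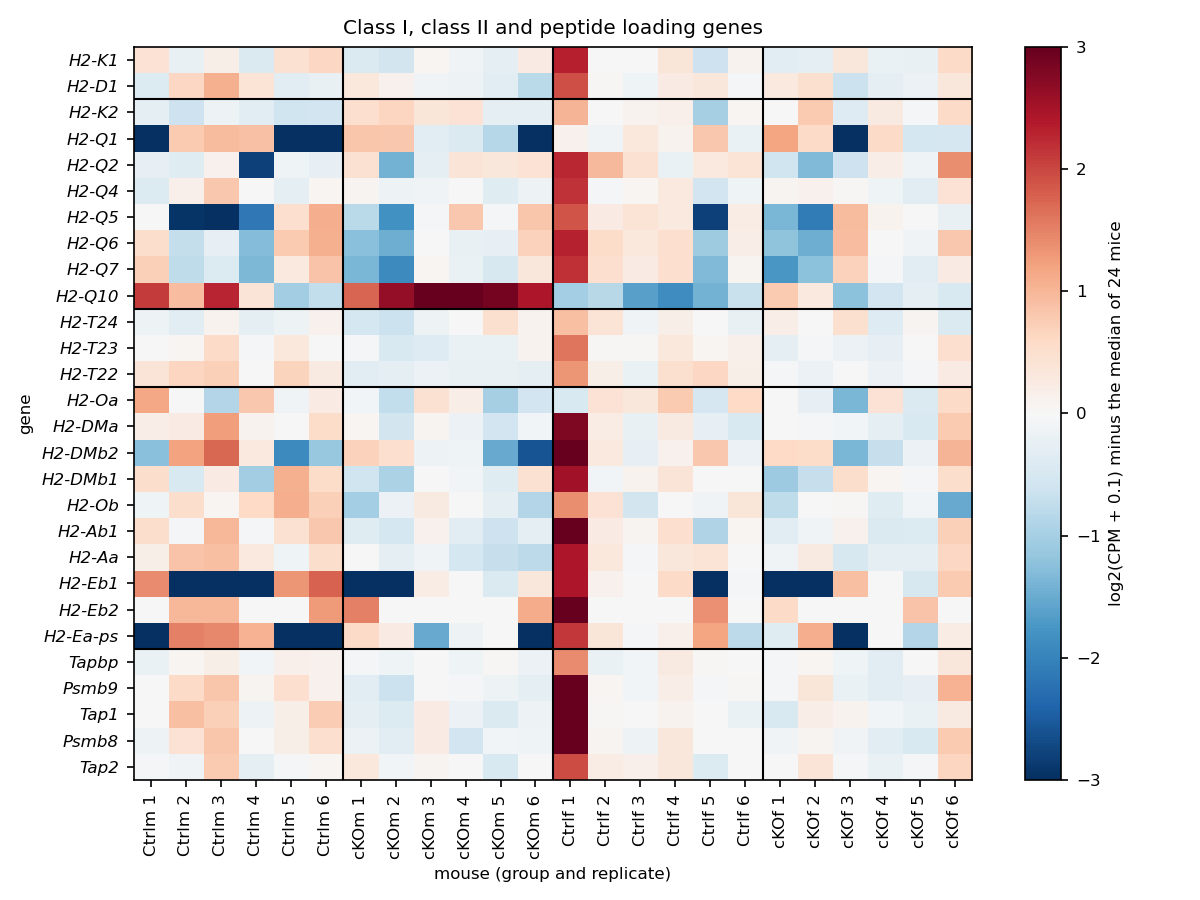
Colours give log2(CPM + 0.1) of each class I, class II or peptide loading member (vertical) in each mouse (horizontal) minus the gene's median over 24 mice, limited to 3 in either direction, with black lines between groups and gene lists. The red column is Ctrlf 1, the dark blue cells of H2-Eb1, H2-Q1, H2-Q5 and H2-Ea-ps show the on-off levels, and H2-Q10 is high in cKOm mice.

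Between cKOm and Ctrlm mice, 8 of 121 members passed the threshold, an edgeR adjusted p below 0.05. This was 6.61% of the members, against 9.05% of all genes tested, so the region held no larger share of them than the genome. Lower in cKOm mice were 6 members (against 4.9% of all genes) and higher were 2 (against 4.14%). H2-Q10 and C4b are among the 8 but were named by the rule, so they count as no result, and 6 of the other 111 members (5.41%) remain. The median log2 change was -0.11 over the members and 0.015 over all genes. Ppt2, a lysosomal thioesterase gene (chr17:34616662-34628510), was at 43.5, 56.6 and 63.0 CPM (lowest, median, highest) in Ctrlm and at 26.2, 35.1 and 37.6 CPM in cKOm mice, with no overlap. Its log2 change was -0.70 (standard error 0.13, edgeR adjusted p = 5.9e-04). Apom, the sphingosine-1-phosphate carrier apolipoprotein M, was at 7.41, 27.1 and 52.9 CPM in Ctrlm and 4.69, 6.27 and 16.5 CPM in cKOm mice. The ranges overlapped, and the log2 change was -1.75 (standard error 0.40, edgeR adjusted p = 0.0073). Neu1, the lysosomal sialidase, fell in all cKOm mice below the Ctrlm range, from a mean of 622 ± 78.1 to 474 ± 23.6 CPM (SD, n = 6; log2 change -0.39, standard error 0.10, edgeR adjusted p = 0.021). Abhd16a, a phospholipid hydrolase gene, rose from 60.9 ± 4.77 to 73.7 ± 2.42 CPM (SD, n = 6) with no overlap (log2 change 0.28, standard error 0.07, edgeR adjusted p = 0.022). The call of Neu1 was lost without Ctrlm 3 or cKOm 6 (edgeR adjusted p up to 0.069) and that of Abhd16a without Ctrlm 2, Ctrlm 6 or cKOm 2 (up to 0.062).

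Of the class I genes, H2-T22, whose product is recognized by gamma delta T cells, was at 41.8, 60.9 and 69.6 CPM in Ctrlm and 34.3, 35.8 and 37.5 CPM in cKOm mice. The groups did not overlap, and the log2 change was -0.72 (standard error 0.17, edgeR adjusted p = 0.0080). Its transcript is 96.3% identical over 1532 bases to that of H2-T10, so the assignment of its reads is uncertain. Gm11127, a predicted gene next to it, had a log2 change of -0.99 (standard error 0.28, edgeR adjusted p = 0.039), with overlap, and its call was lost when any of 8 single kidneys was left out (Ctrlm 1, 3 and 5, cKOm 1, 2, 3, 5 and 6, edgeR adjusted p up to 0.11). H2-Q10 and C4b are given as a description. H2-Q10, which encodes a secreted class I molecule made mainly by the liver, was at 0.991, 3.49 and 10.8 CPM in Ctrlm and 7.41, 15.1 and 30.8 CPM in cKOm mice, a log2 change of 1.8 with a standard error of 0.44. Transcripts of hepatocytes summed over 12 genes to 143 to 1027 CPM in Ctrlm and 147 to 577 CPM in cKOm mice. These 12 genes did not all move alike. Alb had 318 to 16595 counts in Ctrlm and 462 to 4803 in cKOm mice, but Serpina1a had 207 to 1146 and 905 to 1337. Within Ctrlm, the 4 mice with the highest sums (Ctrlm 1 to 4, 541 to 1027 CPM) held 2.82 to 10.8 CPM of H2-Q10 and the other mice 0.991 and 1.24 CPM. Among cKOm mice, cKOm 3 held the highest H2-Q10 level (30.8 CPM) at 159 CPM of hepatocyte transcripts. The cKOm mice 2, 5 and 6 held 11.9 to 16.4 CPM at 147 to 204 CPM, and cKOm 1 held 7.41 CPM at 182 CPM. The hepatocyte sum was highest in cKOm 4 (577 CPM). This mouse had 458 counts of H2-Q10, against 612 in cKOm 3 and 162 to 367 in the other cKOm mice. C4b, a complement component, was at 5.37, 10.8 and 16.4 CPM in Ctrlm and 0.526, 2.51 and 6.16 CPM in cKOm mice, a log2 change of -1.97 with a standard error of 0.51.

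With a score of hepatocyte transcripts as a covariate, Ppt2 and Apom still passed. This score averaged the same 12 genes, which did not all move alike. H2-T22 (log2 change -0.65, edgeR adjusted p = 0.088), Neu1 (-0.36, adjusted p = 0.15), Abhd16a (0.30, adjusted p = 0.072) and Gm11127 (-0.98, adjusted p = 0.14) kept changes of like size but missed the threshold in edgeR, and the male and female changes of Ppt2 no longer differed past the threshold (difference -0.60, edgeR adjusted p = 0.11). Proximal tubule transcripts summed to 6821 to 7737 CPM in Ctrlm and 5382 to 6132 CPM in cKOm mice, and macrophage and dendritic cell transcripts to 98.2 to 148 and 71.9 to 103 CPM, and the part of either in these changes was not tested.

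**Figure D5:**
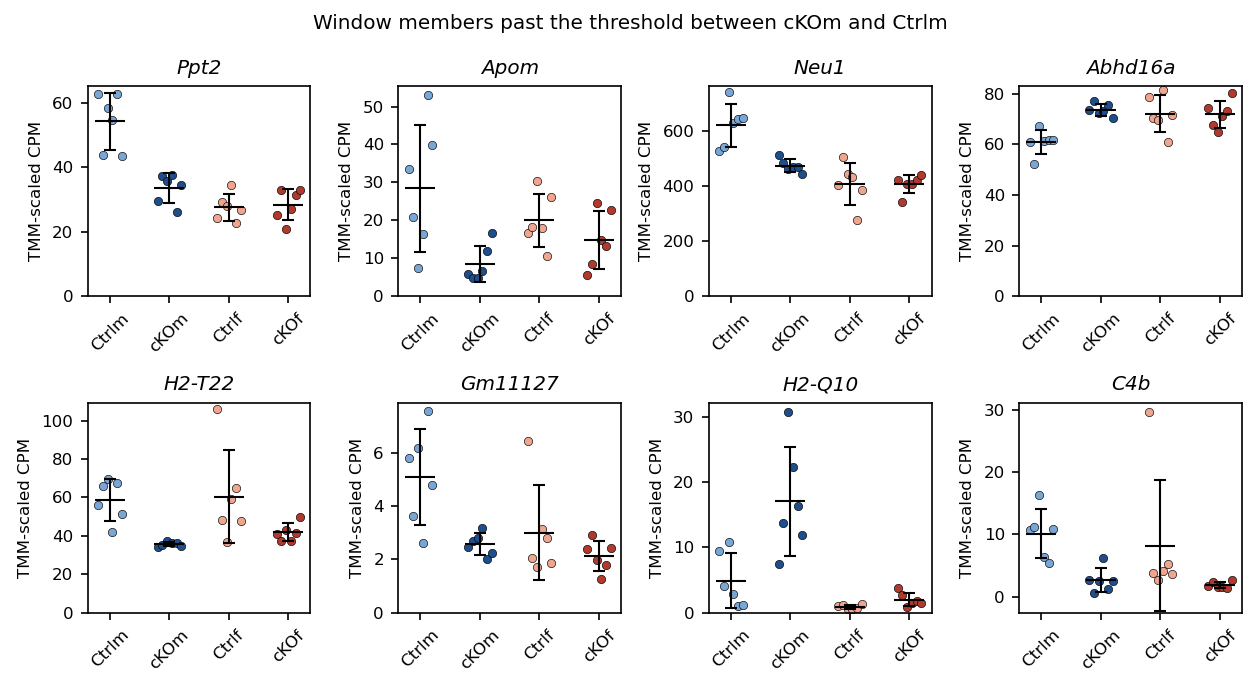
Points give the TMM-scaled CPM of each mouse for the 8 members that passed between cKOm and Ctrlm mice, with the mean and SD of 6 mice per group. The Ctrlm and cKOm points do not overlap for Ppt2, Neu1, Abhd16a and H2-T22, and the high Ctrlf point of H2-T22, Gm11127 and C4b is Ctrlf 1.

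Between cKOf and Ctrlf mice, 2 of 121 members passed (1.65%, against 0.851% of all genes tested), C4b and Btnl2, both lower in cKOf mice (0.46% of all genes). C4b was named by the rule and counts as no result, and both rested on Ctrlf 1. Btnl2 was at 0.288 to 0.905 CPM in the other 5 Ctrlf mice and at 0 to 0.887 CPM in cKOf mice, and its log2 change was -4.55 with Ctrlf 1 (standard error 1.21, edgeR adjusted p = 0.023) and -0.63 without it (edgeR adjusted p = 0.82), and its call was also lost without cKOf 3 or cKOf 4. C4b was at 2.71, 3.93 and 29.6 CPM in Ctrlf and 1.40, 1.61 and 2.71 CPM in cKOf mice. Its log2 change was -2.13 with Ctrlf 1 and -1.07 without it. Without this mouse 0 members passed. Ppt2 was at 22.8 to 34.5 CPM in Ctrlf and 20.9 to 33.1 CPM in cKOf mice (log2 change 0.04, standard error 0.13), and it was the single member whose male and female changes differed past the threshold (difference -0.74, standard error 0.18, edgeR adjusted p = 0.020; 0.826% of the members against 2.31% of all genes tested in either direction and 1.49% in this one). For Apom this difference was -1.32 with a standard error of 0.56 (edgeR adjusted p = 0.28), and for Neu1 -0.39 with a standard error of 0.15 (edgeR adjusted p = 0.20). The female change of H2-T22 was -0.53 with a standard error of 0.17 (edgeR adjusted p = 0.061), and without Ctrlf 1, which was at 106 CPM against 36.7 to 64.9 in the other Ctrlf mice, it was -0.30 (edgeR adjusted p = 0.22).

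All 10 tested class II genes had a log2 change below 0 in males (median -0.70) and in females (median -0.91), but 0 of them passed in either sex. The 10 include H2-Eb1, which was named by the rule. They also include H2-Eb2, which reached 1 CPM only in Ctrlf 1 (3.38 CPM against at most 0.183 in the other 23). Their count is therefore a description. Of all 121 members, 77 were below 0 in males and 80 in females, and the median over all genes was 0.015 and 0.0019. Without Ctrlf 1 the female median was -0.15, with 9 of 10 below 0, and the male median stayed at -0.70. H2-Aa was at 43.2, 63.4 and 89.4 CPM in Ctrlm and 27.4, 36.1 and 47.8 CPM in cKOm mice, a log2 change of -0.86 with a standard error of 0.32 (edgeR adjusted p = 0.15). These groups overlapped. Without Ctrlf 1, whose spread entered the common fit, 11 members passed in males in place of 8 (9.3% of all genes), now with H2-Aa, H2-Ab1 and Tap1. The 5 peptide loading genes were all below 0 in both sexes (medians -0.50 and -1.04), the classical class I genes as well (medians -0.39 and -0.64), and none passed. The female medians rested on Ctrlf 1, and without it they were 0.0023 for the loading genes and -0.01 for the classical class I genes. Among the complement genes, C2 and Cfb, which encode the proteases of the classical and alternative convertases, did not pass, at 8.31 ± 2.22 and 9.28 ± 0.94 CPM for C2 and 6.04 ± 1.17 and 6.23 ± 1.20 CPM for Cfb in Ctrlm and cKOm mice (SD, n = 6). The 4 tested members of the Tnf cluster, the 2 of the Hsp70 cluster, the 12 for transcription and chromatin and the 10 for translation and RNA had none past the threshold in either sex, and their male medians were -0.60, 0.01, 0.0018 and -0.020. Of the 9 partner genes outside the window, 0 passed, with medians of -0.30 in males and -0.74 in females, and -0.02 in females without Ctrlf 1, where 3 passed in males. Per kb of annotated exon, the mean level in Ctrlm mice was highest for Neu1 (167 CPM per kb) among the window members, then H2-D1 (118) and H2-K1 (62.7), against 42.7 for H2-Ab1 and 1.78 for C4b.

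Between Ctrlm and Ctrlf mice, 6 of 121 members passed (4.96%, against 15.7% of all genes tested), 4 higher (8.17% of all genes) and 2 lower (7.48%) in males. H2-Q10, named by the rule, is among them, and 5 of the other 111 remain. Ppt2 was higher in every Ctrlm than in every Ctrlf mouse (log2 difference 0.98, standard error 0.13, edgeR adjusted p = 2.2e-06), as was Neu1, at 408 ± 76.2 CPM in Ctrlf mice (SD, n = 6; log2 difference 0.61, standard error 0.10, edgeR adjusted p = 1.2e-04). Slc44a4, a choline transporter-like gene, was also higher in males (log2 difference 0.26, standard error 0.08, edgeR adjusted p = 0.040), and Abhd16a was lower (log2 difference -0.24, standard error 0.07, edgeR adjusted p = 0.025). Slc44a4 lost its call without any of 7 kidneys (Ctrlm 1, 2, 3 and 5, Ctrlf 1, 3 and 6) and Abhd16a without Ctrlm 2, Ctrlf 1 or Ctrlf 4, with edgeR adjusted p up to 0.11 and 0.078. Btnl2 was lower (log2 difference -3.85) and lost its call without Ctrlf 1 or Ctrlm 1. Without Ctrlf 1 its log2 difference was 0.06, so the direction reversed. H2-Q10 was at 0.517 to 1.30 CPM in Ctrlf mice, and its log2 difference was 2.46 with a standard error of 0.50 and 1.19 with the hepatocyte covariate. C4a, the complement gene next to C4b that carries the sex-limited protein, did not pass, with a log2 difference of 1.19 (standard error 0.41, edgeR adjusted p = 0.058).

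Between cKOm and cKOf mice, 6 of 121 members passed (4.96%, against 9.72% of all genes tested), 4 higher (4.8% of all genes) and 2 lower (4.92%) in males. Without H2-Q10, 5 of the other 111 remain. Ppt2 and Neu1 did not pass there, with log2 differences of 0.24 and 0.22 (standard errors 0.13 and 0.10, edgeR adjusted p = 0.26 and 0.18). H2-Q10 was at 7.41 CPM or more in every cKOm and at 3.75 CPM or less in every cKOf mouse, a log2 difference of 3.10 with a standard error of 0.47. Ppp1r10, a nuclear phosphatase subunit, was higher in males (log2 difference 0.62, standard error 0.16, edgeR adjusted p = 0.0077), as were Brd2, a bromodomain gene (0.26, standard error 0.08, edgeR adjusted p = 0.041), and the antisense RNA Gm20522 (1.13, standard error 0.36, edgeR adjusted p = 0.036). Brd2 lost its call without any of 10 kidneys and Gm20522 without any of 6 (edgeR adjusted p up to 0.081 and 0.080). Tubb5, a tubulin gene, and Ddr1, a collagen receptor gene, were lower in every cKOm than in every cKOf mouse (log2 differences -0.34 and -0.32, standard errors 0.09 and 0.08, edgeR adjusted p = 0.0074 and 0.0086).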

How the data were processed

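RNA of whole kidneys was sequenced with a stranded mRNA kit. The authors deposited raw counts per gene for each kidney, without normalization. The submitters' processing notes name cutadapt 1.8, STAR 2.5.3a, HTSeq 0.9.1 and GRCm38, and the strand setting of the counting is not given in the sources used here. Ambiguous reads (0.706% to 0.939%) and reads aligned to several places were left out of library sizes. Groups came from the labels. Of 55335 gene identifiers, 55154 were found in GENCODE M21 (GRCm38), which gave positions. Genes that reached 1 CPM in any kidney were fitted in R 4.3.3 with edgeR 4.0.16 (TMM, 1 model for 4 groups, quasi-likelihood test), with Benjamini-Hochberg adjustment over the male and female tests together, over the sex differences together and over the interaction, at 0.05. Log2 CPM used a prior count of 2. Correlations carry no test. Transcripts were compared with blastn 2.17.0, and scripts ran on Python 3.11.15. The procedure was tested on simulated data. Kidneys of a group differed by more than sampling noise (chi-square per degree of freedom 9.24 to 91.1). Equal replicate numbers mark different mice and were not paired. Members and gene lists were chosen with earlier results of these data known. Named were the genes that drew attention to the region, members of the role lists, members past the threshold in any comparison, those with the largest gaps and up to 5 genes outside the window most like each of Rps18, H2-Eb1, H2-Q7 and C4b, and others were named after their values were seen. Alternatives were limma-voom (limma 3.58.1), DESeq2 1.42.0, RLE factors, other filters, the replicate block, a hepatocyte score, separate fits of 2 groups, adjustment within a comparison and, chosen after seeing the data, the Rps18 covariate and each kidney left out.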

Additional observations from a re-analysis of the deposited data

Results flagged for a closer look

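In groups of 6 mice, a value was set apart where its gap to the nearest mouse exceeded Dixon's 95% critical fraction of the range of the group. This held for 39 of 180 groups over 45 genes. A chance rate of about 1 in 20 applies to independent, normally distributed values. These genes vary together, several drew attention by on-off levels, and most flags are of Ctrlf 1. The count is therefore a description and is not set against that rate. Ctrlf 1 was the mouse set apart, with these gaps as a fraction of the range, for Tapbp (0.814), H2-K1 (0.853), H2-D1 (0.880), H2-DMa (0.924), H2-DMb1 (0.922), H2-DMb2 (0.930), Psmb8 (0.957), Psmb9 (0.973), Tap1 (0.974) and Tap2 (0.838). It was also set apart for H2-Ob (0.658), H2-Ab1 (0.892), H2-Aa (0.920), H2-Eb1 (0.730), H2-Eb2 (0.953), Btnl2 (0.987), C4b (0.905), H2-Q2 (0.724), H2-Q4 (0.856), H2-Q5 (0.661), H2-Q6 (0.778), H2-Q7 (0.757), H2-T23 (0.890) and Gm11127 (0.693). Ctrlf 5 was set apart by its low Rps18 (0.857), since the other 5 Ctrlf mice lay in the middle set.

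Gaps in other mice were found in Ctrlm 3 for H2-DMa (0.655), Tap2 (0.746), Btnl2 (0.839) and H2-Q4 (0.645), and in Ctrlm 4 for H2-Q2 (0.667). In cKOf 6 they were found for H2-DMa (0.721), Psmb8 (0.660), H2-Q2 (0.664), Ddr1 (0.644) and H2-T23 (0.718). The last ones were Tap1 (0.655) and H2-Ab1 (0.646) in cKOm 3, Ddr1 in cKOm 5 (0.669) and Neu1 in cKOf 2 (0.656).

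The male change of Ppt2 differed from its female change by -0.74 on the log2 scale in edgeR's interaction test (adjusted p = 0.020).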

How the results depend on the processing

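Calls over all genes also move with the setting. In males 1456 genes were called in the main fit, 1496 without Ctrlf 1 and 1385 with the Rps18 covariate. Where no share over all genes is given below, a member count does not tell whether the window moved more than the genome. For male mice, the 8 members became 3 with the hepatocyte covariate and 15 with only the 2 groups fitted, and 5 to 12 when each kidney was left out, with 5 without Ctrlm 3. For female mice, the 2 members became 0 by limma-voom and by adjustment within the comparison, 1 with the filter on 6 kidneys, 1 with the hepatocyte covariate and 1 with only the 2 groups fitted, and 0 to 4 without single kidneys (Ctrlf 1, 2, 3 and 6 and cKOf 3 and 4 moved it by over 1.5 times). The interaction count of 1 became 0 with the hepatocyte covariate and 3 with the Rps18 covariate (2.11% of all genes), and was 1 to 1 without single kidneys. Between Ctrlm and Ctrlf mice, 6 became 3 with the hepatocyte covariate, 3 with only the 2 groups fitted and 14 with the Rps18 covariate (15.8% of all genes), and 4 to 10 without single kidneys, with 10 without Ctrlf 5. With the Rps18 covariate, the 121 members tested still included Rps18 itself. Between cKOm and cKOf mice it was 4 to 7. With a prior count of 0.5, 8 members had a gap in place of 4. Without Ctrlf 1, 13 members in place of 8 were like Rps18 and 1 in place of 5 like C4b, and the log2 difference of Btnl2 between Ctrlm and Ctrlf mice reversed (0.0637, range without single kidneys -5.5544 to 0.0637). Among reruns of single called genes, 207 kept their direction and side of the threshold and 41 lost the call. With the replicate block, 7 members passed in males, 1 in females, 1 in the interaction, 4 between Ctrlm and Ctrlf and 6 between cKOm and cKOf mice. Of 36 pairs of mice with the same number, 3 correlated above 0.1 (-0.20 to 0.12), so the numbers did not pair the mice. The cause of these moves was not tested.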

Other observations

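Another ribosomal protein gene of chromosome 17 had an on-off pattern in partly different mice. Rps2 (chr17:24718116-24721929), outside the window, was at 1.94 to 3.24 CPM in Ctrlm 2, cKOm 1, cKOm 6, Ctrlf 3 and cKOf 4, at 72.6 to 90.4 CPM in 10 mice and at 147 to 263 CPM in 9. Its annotated processed pseudogene Rps2-ps13 on chromosome X was at 20.9 to 32.9 CPM in the first 5, at 10 to 16.8 CPM in the 10 and at 0 to 0.0900 CPM in the 9. The r of Rps2 with Rps18 over 24 mice was 0.21, and the sets of mice overlapped in part. Ctrlm 2 and cKOm 1 were in the lowest set for both genes, Ctrlm 1, 5 and 6 and cKOf 3 in the highest set for both, and cKOm 6 was in the lowest set for Rps2 and the highest for Rps18. The pattern was chosen after its values were seen and carries no test.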
